A study of Mus musculus with 12 samples.

Results

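The genes that surround Plekhg5 on mouse chromosome 4 were followed in spinal cord RNA of mice with and without Plekhg5. Plekhg5 lies at chr4:152072433-152115404 on the plus strand of GRCm38.p6. A gene was taken as a member when its annotated start was on chromosome 4 at position 142072433 or higher, which is at most 10 Mb below the start of Plekhg5, when its counts summed over the 12 libraries reached 120, and when it was not Plekhg5 itself. Of the 398 annotated genes in this stretch, 185 stayed under the count limit and 213 were members, out of 19499 genes in the whole data that reached the same limit. Members were thus selected on position and on the sum of counts over all 12 libraries, the only measured value in this choice. The sum takes no account of genotype. A gene with few counts could still reach the limit mainly through the groups where it was high. Tnfrsf25 held 137 and 59 counts in the groups with Plekhg5 and 7.17 and 11 in those without it. Gm30120 held 63.5 and 40 in the first and 353.5 and 311.5 in the others. Results that include such members carry this limit. The members started between 9.97 Mb below and 4.17 Mb above Plekhg5, where the chromosome's annotated genes end. Just inside the count limit were Gm13126, with 121.5 counts, and Gm20760, with 128.2, and just outside it were Gm13160, with 119.7, and Gm35531, with 117. The first member by position was Kazn, 9.97 Mb below Plekhg5, and Tmem51, 10.04 Mb below, was the first gene left out. By the annotation, 155 members code for proteins, 31 are pseudogenes, 5 are transcribed pseudogenes, 21 are long noncoding RNAs and 1 is a microRNA gene.

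Poly-A RNA of the spinal cord was sequenced in 12 mice at 7 months of age, with 3 mice in each of 4 genotypes on a C57BL/6 background. The genotypes were Plekhg5+/+, Plekhg5-/-, Plekhg5+/+ SOD1-G93A and Plekhg5-/- SOD1-G93A. The SOD1-G93A mice carry a human SOD1 transgene with a mutation known from familial amyotrophic lateral sclerosis (ALS), in a line with a low copy number. How the Plekhg5 allele was made is not given in the sources used here. The genotype without Plekhg5 was compared with its control once without the transgene and once with it. These comparisons share no library, and the fit gave them a common estimate of the spread.

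Plekhg5 is an activator of Rab26, a small GTPase on synaptic vesicles, and acts in the autophagy of these vesicles in motoneurons. Genes that lie close together on a chromosome are inherited together. Mice bred for an allele of one gene therefore tend to share the alleles of the genes near it as well, and the closer a gene lies, the more often it is shared. Neighbouring genes can also share regulatory sequence, and transcription of one can run into the next. Comparing levels by distance from the targeted gene shows where along the chromosome they differ, and in this design an effect of losing Plekhg5 and an effect of alleles carried along with it cannot be told apart.

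The labels were checked with Plekhg5 first. Its level was 19.5, 24.5 and 25.0 CPM, which are counts scaled to the depth of the library, in Plekhg5+/+ and 3.28, 3.99 and 4.71 CPM in Plekhg5-/-, and 21.5, 24.9 and 20.9 CPM in Plekhg5+/+ SOD1-G93A against 4.7, 3.91 and 4.13 CPM in Plekhg5-/- SOD1-G93A. The log2 fold changes were -2.53 (SE 0.143, edgeR adjusted p = 5.74e-06) and -2.40 (SE 0.141, edgeR adjusted p = 9.55e-06). Total counts ranged from 30415643 to 38743628 per library. Transcripts of Y-linked genes were present in 8 of the 12 libraries, in 3, 2, 2 and 1 of the 3 mice of Plekhg5+/+, Plekhg5-/-, Plekhg5+/+ SOD1-G93A and Plekhg5-/- SOD1-G93A. The labels do not state that mice of different groups shared a litter or a batch.

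A pair of libraries stood apart from the others of their genotype in this stretch of the chromosome. For each library and gene, it was asked whether the library's level was at least 1.5-fold above or below both other libraries of the genotype, after 0.1 CPM was added. In Plekhg5-/- replicate 3 this held for 20 of the 213 members (9.39%) and for 2.33% of all genes. In Plekhg5+/+ SOD1-G93A replicate 2 it held for 10 members (4.69%), against 2.49% of all genes. In each of the other 10 libraries it held for 2 to 8 members and for 1.82% to 4.58% of all genes. The 8 members (3.76%) were those of Plekhg5+/+ SOD1-G93A replicate 1, where it held for 4.58% of all genes. Of the 20 members in Plekhg5-/- replicate 3, 14 lay between 6.81 and 3.86 Mb below Plekhg5, where 54 members start (25.9%), 5 lay more than 2 Mb above it, and only 9230110K08Rik lay between these. The main counts and the members set by these libraries are given with and without them. 9230110K08Rik and the members named below for these libraries were chosen after their values were seen.

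By edgeR, few genes differed with the loss of Plekhg5, and all of those on chromosome 4, Plekhg5 aside, were members. In Plekhg5-/- against Plekhg5+/+, 3 members passed an edgeR adjusted p of 0.05, against 0.0308% of all genes. They were the long noncoding RNA Gm30120, which was higher, and Slc2a5 and Tnfrsf25, which were lower. In Plekhg5-/- SOD1-G93A against Plekhg5+/+ SOD1-G93A, 4 members passed, against 0.0359% of all genes. Gm30120 was higher and Slc2a5, Eno1 and Faap20 were lower. In the average of both comparisons, with 6 mice on each side, 6 members passed, against 0.0564% of all genes. Gm30120 and Ttc34 were higher, against 0.0308% of all genes called higher, and Slc2a5, Eno1, Tnfrsf25 and Faap20 were lower, against 0.0256% called lower. All 6 lay between 1.95 Mb below and 3.17 Mb above Plekhg5.

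The genes called by edgeR outside this stretch, Plekhg5 aside, were 2 without the transgene, 2 with it and 4 in the average. Gm8483 on chromosome 14, Eno1b on chromosome 18 and Gm5855 on chromosome 3 are copies of the member Eno1. LOC115489042 on chromosome 19 overlaps a processed pseudogene of the member Vamp3. A copy was counted as such when a GENCODE transcript of it matched one of a member at 90% identity or more over at least 250 bases. By this rule 54 of the 213 members had a copy elsewhere among the genes with counts, 72 of these copies were tested, and the 4 called genes were all among the 72. Of the 1012 genes on the rest of chromosome 4, edgeR called 0 in either comparison or in the average. An unadjusted p under 0.05 was found for 55 of them without the transgene, 94 with it and 48 in the average. DESeq2 without a prior called 1, 10 and 3 of them. On other chromosomes DESeq2 called 27, 54 and 6 genes without a prior and 27, 96 and 8 with one. Whether these genes are copies of members was not examined.

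**Figure D1:**
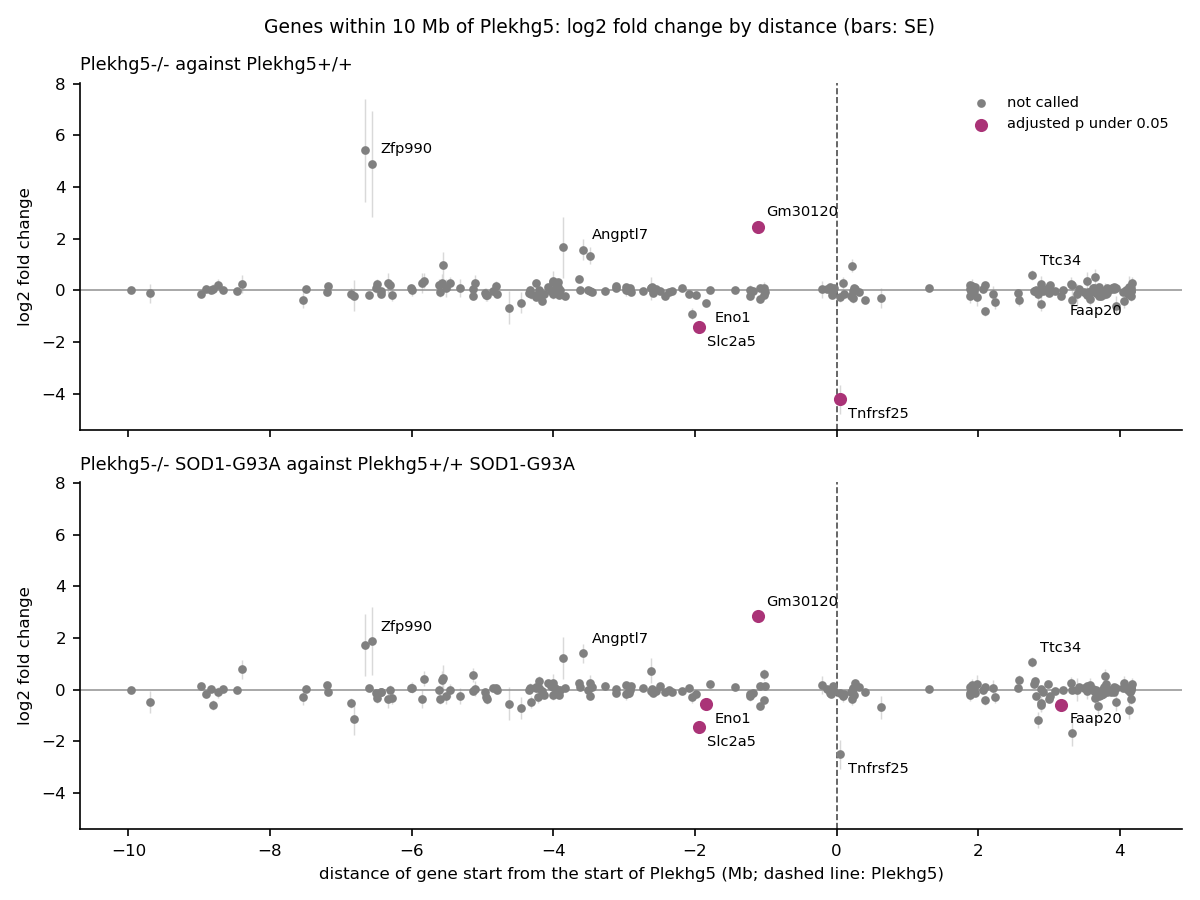
Log2 fold change of each of the 213 members (points, with bars for the SE) against the distance of its start from that of Plekhg5 in Mb, without the transgene (top) and with it (bottom). Purple points passed an edgeR adjusted p of 0.05: Gm30120 lay above 0 in both panels and Slc2a5 below 0 in both, and Zfp990, with a log2 fold change of 4.89 and an SE of 2.05 in the top panel, was not called.

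Sequences at the starts of the 3 members called without the transgene are shown, since the results turn on these genes. Each is the 250 bases before a start listed by RefSeq, written 5′ to 3′ on the gene's strand. Capitals mark matches on either strand to a TATA box (TATAA), to the letters CCAAT of the box of that name, or to the core of a GC box (GGGCGG).
Gm30120 (GRCm38.p6, chr4:150980889-150981138, minus strand): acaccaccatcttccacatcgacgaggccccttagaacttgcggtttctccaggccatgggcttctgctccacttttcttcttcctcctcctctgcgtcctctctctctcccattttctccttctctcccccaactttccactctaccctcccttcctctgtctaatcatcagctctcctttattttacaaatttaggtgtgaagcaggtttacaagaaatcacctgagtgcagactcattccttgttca
Slc2a5 (GRCm38.p6, chr4:150119094-150119343, plus strand): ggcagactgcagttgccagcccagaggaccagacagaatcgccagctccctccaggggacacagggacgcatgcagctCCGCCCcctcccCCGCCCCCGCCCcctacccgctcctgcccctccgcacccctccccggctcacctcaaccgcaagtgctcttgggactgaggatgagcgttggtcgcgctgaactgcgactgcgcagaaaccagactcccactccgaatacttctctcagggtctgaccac
Tnfrsf25 (GRCm38.p6, chr4:152115684-152115933, plus strand): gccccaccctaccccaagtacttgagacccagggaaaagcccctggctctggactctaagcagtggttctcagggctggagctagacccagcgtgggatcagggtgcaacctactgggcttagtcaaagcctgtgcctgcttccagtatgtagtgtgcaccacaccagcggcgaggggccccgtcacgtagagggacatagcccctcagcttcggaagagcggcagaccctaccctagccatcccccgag
The window of Slc2a5 held 3 matches to GGGCGG, and those of Gm30120 and Tnfrsf25 held no match to any of these motifs. Over 27025 genes with a listed start, 32.7% of such windows held GGGCGG, 34.2% held CCAAT and 23.4% held TATAA. Of the 143 members with a listed start, 58.7%, 33.6% and 12.6% did. All of these had reached the count limit, while the 27025 genes were not filtered on counts, so the shares are not directly comparable. The window of Tnfrsf25 begins 279 bases past the end of Plekhg5 and belongs to the first of 2 listed starts. It lies inside the gene as the deposited table annotates it, which starts 123 bases past Plekhg5.

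Gm30120 had the largest rise among the called members. This long noncoding RNA of unknown function lies on the minus strand at chr4:150965587-150980888, 1.11 Mb below Plekhg5. Its level was 0.7, 0.567 and 0.66 CPM in Plekhg5+/+ and 3.08, 4.23 and 3.42 CPM in Plekhg5-/-. Among mice with the transgene it was 0.527, 0.329 and 0.39 CPM in the controls and 3.15, 3.15 and 2.72 CPM without Plekhg5. Every library without Plekhg5 stood above every control. The log2 fold changes were 2.45 (SE 0.191, edgeR adjusted p = 0.00013) and 2.84 (SE 0.204, edgeR adjusted p = 5.4e-05), and the difference between them was 0.38, with an unadjusted p of 0.221. The deposited counts behind these levels were low, with 10 to 24 in the control libraries and 102.5 to 140.25 in the others, and 6 libraries held fractions of reads.

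Slc2a5 encodes a fructose transporter, which in the brain is a gene of microglia. It lies at chr4:150119344-150144168 on the plus strand, 1.95 Mb below Plekhg5. Its level was 3.56, 3.34 and 4.45 CPM in Plekhg5+/+ and 1.17, 1.42 and 1.58 CPM in Plekhg5-/-. In mice with the transgene it was 3.53, 4.31 and 4.87 CPM in the controls and 1.54, 1.43 and 1.65 CPM without Plekhg5. The groups did not overlap in either comparison. The log2 fold changes were -1.44 (SE 0.175, edgeR adjusted p = 0.00809) and -1.46 (SE 0.172, edgeR adjusted p = 0.00603). The call without the transgene was lost without Plekhg5-/- replicate 1 or 2 and the call with it without Plekhg5-/- SOD1-G93A replicate 1 or 2. The first was also lost when only the 2 genotypes of that comparison were fitted (edgeR adjusted p = 0.136). In bulk tissue, fewer cells of a type and less RNA per cell cannot be told apart. The summed level of 8 microglia markers, none of them a member, ranged from 394 to 456 CPM in Plekhg5+/+, from 437 to 593 CPM in Plekhg5-/-, from 710 to 1240 CPM in Plekhg5+/+ SOD1-G93A and from 546 to 608 CPM in Plekhg5-/- SOD1-G93A. None of the 8 passed the edgeR test for loss of Plekhg5, and their median log2 fold change was 0.26 without the transgene and -0.57 with it. Their part in the level of Slc2a5 was not tested.

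Tnfrsf25 is the nearest gene above Plekhg5 and encodes death receptor 3, a receptor of the tumour necrosis factor family known from T cells. It lies on the same strand, at chr4:152115528-152120119, and 123 bases separate the end of Plekhg5 from its start. Its level was 1.31, 1.92 and 0.951 CPM in Plekhg5+/+ and 0.0342, 0.181 and 0 CPM in Plekhg5-/-. On the SOD1-G93A background it was 0.434, 0.691 and 0.721 CPM in the controls and 0.123, 0.121 and 0.0774 CPM without Plekhg5. The groups did not overlap in either comparison, although the counts were few. The 3 libraries of Plekhg5+/+ held 137 counts together and those of Plekhg5-/- held 7.17. With the transgene these sums were 59 and 11. The count of 0 in Plekhg5-/- replicate 3 allows up to 3 counts, a limit that covers counting error only. The log2 fold change was -4.23 (SE 0.558, edgeR adjusted p = 0.0161) without the transgene and -2.50 (SE 0.563, edgeR adjusted p = 0.387) with it, and the difference between them was 1.73, with an unadjusted p of 0.0842. In the average of both it was -3.36 (SE 0.399, edgeR adjusted p = 0.00445). The call without the transgene was lost when any of Plekhg5+/+ replicates 1 and 2 and Plekhg5-/- replicates 1 and 3 was left out, and when only the 2 genotypes of that comparison were fitted (edgeR adjusted p = 0.205).

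The other neighbours of Plekhg5 did not pass the test. The 3 nearest below, Klhl21, Zbtb48 and Nol9, start 0.0635, 0.0527 and 0.0332 Mb away and had log2 fold changes of -0.19, 0.00 and 0.09 without the transgene and -0.10, 0.14 and -0.04 with it. Espn, an actin-bundling protein, starts 0.0479 Mb above and had log2 fold changes of -0.27 and -0.14. For the pseudogene Gm13077, 0.0836 Mb above, they were 0.28 and -0.25. The lowest edgeR adjusted p among these 5 genes was 0.676 with the transgene and 0.930 without it.

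Eno1, which encodes the glycolytic enzyme alpha-enolase, was the called member with the highest level. It lies at chr4:150236692-150248873 on the plus strand, 1.84 Mb below Plekhg5. Its level was 410, 371 and 353 CPM in Plekhg5+/+ and 299, 258 and 249 CPM in Plekhg5-/-. In the presence of the transgene it was 366, 352 and 393 CPM in the controls and 252, 262 and 243 CPM without Plekhg5. The groups did not overlap. The log2 fold changes were -0.49 (SE 0.0793, edgeR adjusted p = 0.102) and -0.55 (SE 0.0794, edgeR adjusted p = 0.0325), and in the average -0.52 (SE 0.0561, edgeR adjusted p = 0.00172). The call with the transgene was lost when any of the 6 libraries of that comparison, Plekhg5+/+ replicate 2 or Plekhg5-/- replicate 2 was left out, and the call in the average was kept in each case. With Y-linked transcripts as a covariate the call with the transgene was lost as well (edgeR adjusted p = 0.124).

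The counts of Eno1 are tied to those of its copies, since a read with several matches was divided among them. All 12 libraries held fractions of reads at Eno1. Coding sequence of 60 bases from exon 9 of Eno1 is shown beside the same stretch of 3 processed copies, with bases that differ from Eno1 in capitals. The window was chosen as the one within an exon in which Gm5855 and Gm8483 differ most from Eno1. Sequences are from GENCODE release M21 transcripts.
Eno1 (GRCm38, chr4:150247573-150247632, plus strand): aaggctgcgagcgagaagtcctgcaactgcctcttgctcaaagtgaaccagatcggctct
Gm5855 (GRCm38, chr3:130929625-130929684, minus strand): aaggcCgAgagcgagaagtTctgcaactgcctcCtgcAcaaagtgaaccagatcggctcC
Gm8483 (GRCm38, chr14:14447916-14447975, minus strand): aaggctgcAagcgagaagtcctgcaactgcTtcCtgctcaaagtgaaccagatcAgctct
Gm4735 (GRCm38, chr2:80838128-80838187, plus strand): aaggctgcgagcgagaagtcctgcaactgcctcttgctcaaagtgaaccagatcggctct
Here Gm5855 differs from Eno1 at 6 bases and Gm8483 at 4, and Gm4735 differs at 0. Over their aligned lengths the identities to Eno1 were 96.3% for Gm5855, 94.3% for Gm8483, 99.6% for Gm4735 and 99.5% for Eno1b.

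Where Eno1 was lower, copies were higher. Gm8483, on chromosome 14, was at 1.43, 1.35 and 1.23 CPM in Plekhg5+/+ and 4.91, 4.04 and 3.94 CPM in Plekhg5-/-, with log2 fold changes of 1.68 (edgeR adjusted p = 0.000151) without the transgene and 1.62 (edgeR adjusted p = 0.00019) with it. Eno1b had log2 fold changes of 0.42 and 0.38 and Gm5855 of 0.54 and 0.50, and both were called in the average (edgeR adjusted p = 0.015 and 0.0211). Gm4735, the copy most like Eno1, had log2 fold changes of 0.11 and 0.08 and was not called. Summed over Eno1 and its 7 copies, the level was 729, 665 and 633 CPM in Plekhg5+/+ and 706, 610 and 589 CPM in Plekhg5-/-, and 656, 627 and 700 CPM in Plekhg5+/+ SOD1-G93A and 603, 621 and 575 CPM in Plekhg5-/- SOD1-G93A. The summed levels overlapped between the genotypes without the transgene, and did not overlap with it.

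The share of the summed counts that fell on Eno1 itself separated the genotypes completely. As mean ± SD of 3 libraries, it was 56.0% ± 0.3 for Plekhg5+/+, 42.3% ± 0.021 for Plekhg5-/-, 56.0% ± 0.2 for Plekhg5+/+ SOD1-G93A and 42.1% ± 0.17 for Plekhg5-/- SOD1-G93A. The share was computed after Eno1 and its copies had been called, so it describes these calls and is given with no test. With the 8 genes counted as 1, the log2 fold change was -0.09 (SE 0.0779) and -0.14 (SE 0.0779), and the edgeR adjusted p was 0.999 and 0.599. The sum over all 8 was thus not called.

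**Figure D2:**
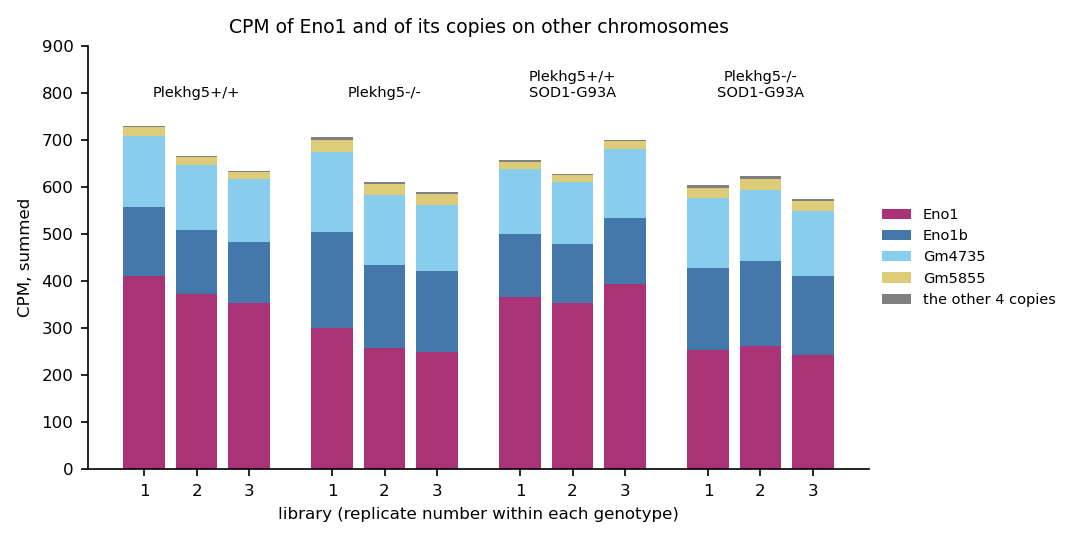
CPM of Eno1 and of its 7 copies on other chromosomes, stacked, in each of the 12 libraries. The lowest segment, Eno1, takes about the same share in all 6 libraries with Plekhg5, with means of 56.0% in both genotypes, and means of 42.3% and 42.1% in the 6 libraries without it.

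A copy was also higher for Vamp3, a SNARE protein of endosomes 1.03 Mb below Plekhg5. Its processed copy on chromosome 19 lies within LOC115489042. A window of 60 coding bases is shown, with differing bases in capitals. It was chosen as the one within an exon in which the copy differs most from Vamp3.
Vamp3 (GRCm38, chr4:151056169-151056228, minus strand): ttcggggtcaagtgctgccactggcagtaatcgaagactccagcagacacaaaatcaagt
pseudogene AC135670.1 (GRCm38, chr19:10176088-10176147, minus strand): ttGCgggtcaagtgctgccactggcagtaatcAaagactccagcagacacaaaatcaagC
The pseudogene is 94.5% identical to Vamp3 over 309 aligned bases. Of the counts on both genes, 99.7% ± 0.14 fell on Vamp3 in Plekhg5+/+ and 96.8% ± 0.25 in Plekhg5-/-, again as mean ± SD of 3 libraries. With the transgene the shares were 99.9% ± 0.062 and 96.1% ± 0.05. The groups did not overlap, and again no test is given, since the pair was examined because the copy was called. Vamp3 itself was not called, with log2 fold changes of -0.17 and -0.39. The sum of both genes had log2 fold changes of -0.12 and -0.34 (edgeR adjusted p = 0.999 and 0.439), close to those of Vamp3 alone. With the transgene the mean of Vamp3 was 58.5 CPM in the controls and 44.7 CPM without Plekhg5, and that of the copy 0.0772 and 1.81 CPM. When the reads of Eno1 and of Vamp3 were each added to those of their copies, an alternative chosen after seeing the data, the genes called in the average were Plekhg5 and 4 members, Gm30120, Slc2a5, Tnfrsf25 and Faap20.

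Faap20 encodes a subunit of the Fanconi anaemia core complex, which repairs crosslinked DNA. It lies 3.17 Mb above Plekhg5, at chr4:155246904-155256687. Its level was 22.6, 19.9 and 18.9 CPM in Plekhg5+/+ and 18.3, 16.7 and 16.9 CPM in Plekhg5-/-. With the transgene it was 22.2, 23 and 22.7 CPM in the controls and 15.6, 15.3 and 14.6 CPM without Plekhg5. The groups did not overlap in either comparison and lay farther apart with the transgene. The log2 fold changes were -0.24 (SE 0.0767, edgeR adjusted p = 0.793) and -0.58 (SE 0.0769, edgeR adjusted p = 0.0177). The test of the difference gave -0.33 with an unadjusted p of 0.00926, which did not pass adjustment over all genes. The call with the transgene was lost without any of the 6 libraries of that comparison, and without Plekhg5+/+ replicate 2. The call in the average, -0.41 (SE 0.0543, edgeR adjusted p = 0.0122), was lost without Plekhg5-/- replicate 2, without Plekhg5+/+ SOD1-G93A replicate 2, and without either Plekhg5-/- SOD1-G93A replicate 2 or 3. Both calls were also lost with Y-linked transcripts as a covariate (edgeR adjusted p = 0.0688 with the transgene and 0.0588 in the average).

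Ttc34, a gene for a protein with tetratricopeptide repeats, lies 2.76 Mb above Plekhg5, at chr4:154837308-154867125. Its level was 1.72, 1.45 and 1.6 CPM in Plekhg5+/+ and 2.55, 1.9 and 2.72 CPM in Plekhg5-/-. With the transgene it was 1.55, 1.71 and 1.44 CPM in the controls and 3.35, 2.67 and 3.82 CPM without Plekhg5. Every library without Plekhg5 stood above every control of its background. The log2 fold change in the average was 0.83 (SE 0.128, edgeR adjusted p = 0.0437), and the call was lost in 15 of 24 alternatives, among them the fits without any of Plekhg5+/+ replicates 1, 2 and 3, Plekhg5-/- replicates 1 and 3, Plekhg5+/+ SOD1-G93A replicates 1, 2 and 3 and Plekhg5-/- SOD1-G93A replicates 1 and 3. Its edgeR adjusted p rose to at most 0.208 in these 15, which also hold the fit with Y-linked transcripts as a covariate.

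**Figure D3:**
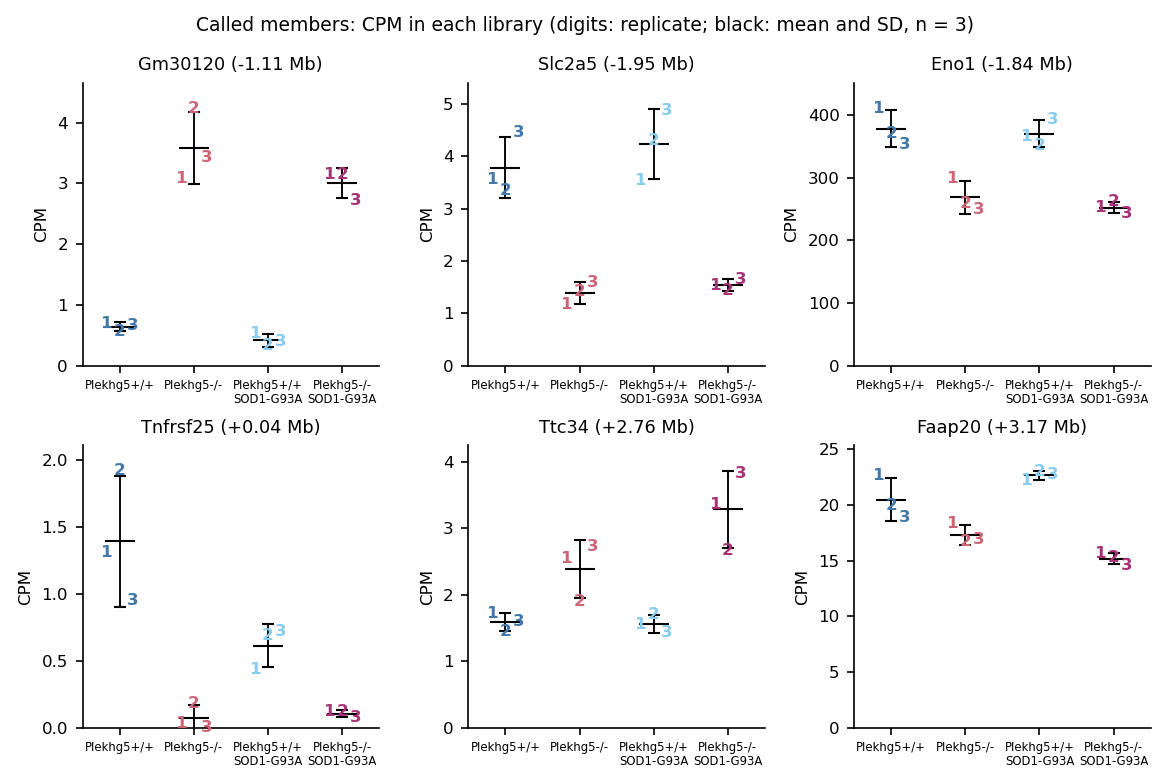
CPM in each library for the 6 members called in the average of both comparisons. Digits are replicate numbers and black bars the mean and SD of 3 libraries, cut at 0 CPM. In both backgrounds the libraries without Plekhg5 lay wholly above their controls for Gm30120 and Ttc34 and wholly below them for the other 4 genes.

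Members that differed the same way in both comparisons were most frequent close below Plekhg5. Groups did not overlap in 35 members (16.4%) without the transgene, against 8.71% of all genes, and in 52 (24.4%) with it, against 19.9%. They did not overlap in both comparisons, in the same direction, for 9 of the 213 members (4.23%), against 0.400% of all genes. Besides the 6 called members these were Angptl7, which was higher, and Uts2 and 2510039O18Rik, which were lower. The last was chosen after its values were seen. Of the 21 members up to 2 Mb below Plekhg5, 4 were among the 9 (19.0%), of the 22 up to 2 Mb above it 1 was (4.55%), of the 59 from 2 to 5 Mb below 2 were (3.39%), of the 71 from 2 to 5 Mb above 2 were (2.82%), and of the 40 from 5 to 10 Mb below 0 were. On the rest of chromosome 4 the share was 0.296%, and on other chromosomes 0.356%. With Plekhg5-/- replicate 3 and Plekhg5+/+ SOD1-G93A replicate 2 both left out, an alternative chosen after seeing the data, groups did not overlap in 23.9% of the members without the transgene, 43.7% with it and 8.92% in both, against 18.1%, 36.5% and 1.46% of all genes.

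An unadjusted p under 0.05 was found for 31 members (14.6%) without the transgene, for 30 (14.1%) with it and for 35 (16.4%) in the average, against 5.36%, 8.76% and 3.84% of all genes. In the average this share was 33.3% within 2 Mb below Plekhg5, 18.2% within 2 Mb above, 18.6% from 2 to 5 Mb below, 14.1% from 2 to 5 Mb above and 7.50% from 5 to 10 Mb below. On the rest of chromosome 4 it was 4.74%. Without the same 2 libraries, the shares of the members were 10.8%, 20.7% and 16.9%, against 6.12%, 13.3% and 4.59% of all genes. Taken over all members, the median log2 fold change was -0.015 and -0.018 in the 2 comparisons, against 0.003 and -0.012 over all genes tested, and its median size in the average was 0.081, against 0.059 over all genes tested.

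The log2 fold changes of the 2 comparisons had the same sign for 115 members (54.0%), against 41.8% of all genes. Pearson's r between them was 0.72 over the 213 members and 0.62 over the 207 that were not called in the average. It was -0.10 over all genes tested, which are not independent replicates. Spearman's rho was 0.32 over the members, 0.27 over the 207 and -0.20 over all genes. Without Plekhg5-/- replicate 3 and Plekhg5+/+ SOD1-G93A replicate 2, 96 members (45.1%) had the same sign, against 36.6% of all genes, Pearson's r was 0.52 over the members and 0.36 over the 207, and Spearman's rho was 0.07 and -0.01. Over all genes tested Pearson's r was then -0.09 and Spearman's rho -0.29. The values over the members and over the 207 were thus lower without these libraries, and stayed above those of all genes. The values are descriptions, since members share their libraries and some share reads.

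**Figure D4:**
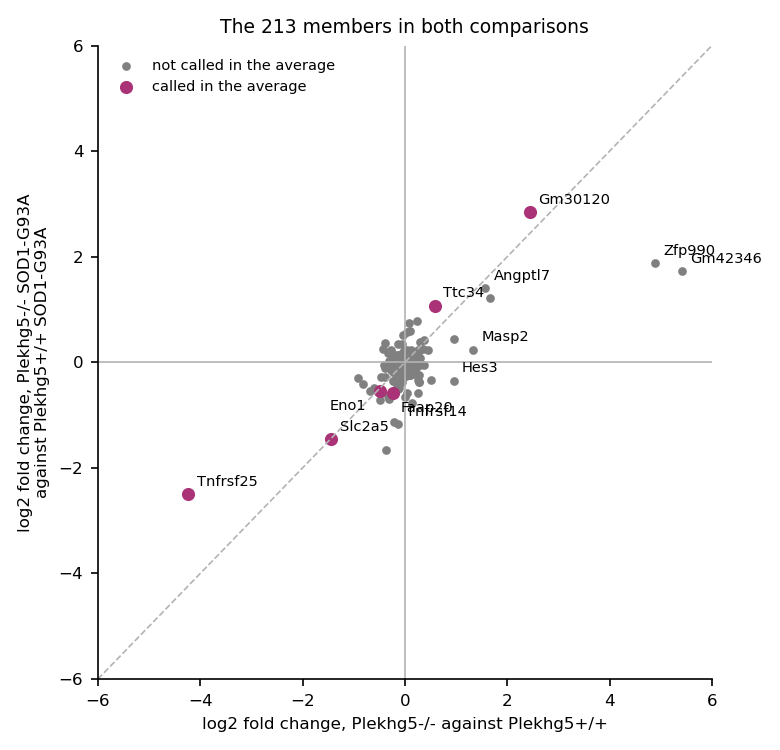
Log2 fold change of the 213 members without the transgene (x axis) and with it (y axis), with purple points for the 6 members called in the average and a dashed line where both would be equal. Gm30120, at 2.45 and 2.84, and Slc2a5, at -1.44 and -1.46, lie close to the line, and Tnfrsf25, at -4.23 and -2.50, and Zfp990, at 4.89 and 1.88, lie off it.

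The smallest adjusted p among the members not called in the average was that of Angptl7, a secreted angiopoietin-like protein 3.58 Mb below Plekhg5. Its level was 0.204, 0.567 and 0.153 CPM in Plekhg5+/+ and 0.702, 0.906 and 1.14 CPM in Plekhg5-/-, and 0.372, 0.724 and 0.481 CPM in Plekhg5+/+ SOD1-G93A and 1.32, 1.79 and 1.08 CPM in Plekhg5-/- SOD1-G93A. The groups did not overlap, with log2 fold changes of 1.57 (SE 0.42) and 1.41 (SE 0.375), and the edgeR adjusted p in the average was 0.234. Uts2, which encodes the peptide urotensin 2 of motoneurons, lies 1.08 Mb below and was at 10.3, 8.89 and 8.01 CPM against 7.78, 6.64 and 7.15 CPM without the transgene, and at 14.1, 13.7 and 13.8 CPM against 11.6, 6.91 and 8.13 CPM with it. Its log2 fold changes were -0.33 and -0.64, with an edgeR adjusted p of 0.66 in the average. DESeq2 with a prior called both genes in the average. Megf6, 2.10 Mb above, had log2 fold changes of -0.82 (SE 0.184) and -0.42 (SE 0.183). Its groups did not overlap without the transgene and overlapped with it. EdgeR did not call Megf6, and DESeq2 called it without the transgene and in the average, with or without a prior.

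Some uncalled members had larger log2 fold changes without the transgene than with it, although the test of the difference passed for none. Masp2, a protease of the complement pathway 3.48 Mb below, was at 0.977, 1.47 and 1.01 CPM in Plekhg5+/+ and 2.15, 3.4 and 3.24 CPM in Plekhg5-/-, and at 1.01, 2.57 and 1.25 CPM in Plekhg5+/+ SOD1-G93A and 2.35, 2.0 and 1.34 CPM in Plekhg5-/- SOD1-G93A. Its groups overlapped only in the second comparison, with log2 fold changes of 1.34 (SE 0.335, edgeR adjusted p = 0.694) and 0.24 (SE 0.332, edgeR adjusted p = 0.815). The unnamed gene Gm13067 had log2 fold changes of -0.91 and -0.30, and Plod1, a collagen-modifying enzyme, had -0.41 and -0.06. In the other direction, Rer1, a sorting receptor of the Golgi 3.0 Mb above, was at 73.3, 71.9 and 78.5 CPM in Plekhg5+/+ SOD1-G93A and at 58.3, 58.8 and 58.8 CPM in Plekhg5-/- SOD1-G93A. These groups did not overlap, and its log2 fold changes were -0.35 (edgeR adjusted p = 0.387) with the transgene and -0.09 without it.

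Some of the members far below Plekhg5 showed a different pattern, in which single libraries stood apart from their genotype. This stretch holds a cluster of C2H2 zinc finger genes, a family of DNA-binding proteins with many near-identical copies, and reads at Zfp990, Zfp982 and Zfp979 were divided with other genes in 11 or 12 libraries. Zfp990, 6.56 Mb below, was at 0.0292, 0.0734 and 0.0469 CPM in Plekhg5+/+ and at 0.0535, 0.0761 and 4.73 CPM in Plekhg5-/-. With the transgene it was at 0.0626, 1.96 and 0.0802 CPM in the controls and at 2.72, 2.28 and 2.66 CPM without Plekhg5. High values were thus found in Plekhg5-/- replicate 3, at intermediate height in Plekhg5+/+ SOD1-G93A replicate 2, and in all 3 libraries of Plekhg5-/- SOD1-G93A.

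Other members had Plekhg5-/- replicate 3 apart as well, some upwards and some downwards. Those outside the rule for named genes were chosen after their values were seen. The unnamed gene Gm42346, 6.66 Mb below, was at 0.00904, 0.0315 and 0 CPM in Plekhg5+/+ and at 0.0366, 0.0703 and 1.71 CPM in Plekhg5-/-, then at 0.0428, 0.507 and 0.0225 CPM in Plekhg5+/+ SOD1-G93A and at 0.64, 0.447 and 0.696 CPM in Plekhg5-/- SOD1-G93A. Zfp982, 4.63 Mb below, was at 16.5, 15.9 and 16.0 CPM, then 14.3, 14.9 and 0.955 CPM, then 19.0, 9.72 and 13.8 CPM and then 8.37, 10.8 and 10.1 CPM in the same order of genotypes. For Zfp979, 4.46 Mb below, these values were 9.32, 8.2 and 9.97 CPM, 9.24, 8.4 and 1.9 CPM, 9.12, 5.51 and 8.61 CPM, and 4.83, 4.43 and 4.86 CPM. In all 4 genes Plekhg5-/- replicate 3 was farthest from the Plekhg5+/+ libraries, and Plekhg5+/+ SOD1-G93A replicate 2 and the 3 Plekhg5-/- SOD1-G93A libraries lay between. Of the 11 members of the zinc finger list, 0 were called by edgeR and 1 had an unadjusted p under 0.05 in the average.

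Genes of other kinds, again chosen after their values were seen, also had Plekhg5-/- replicate 3 apart. Fbxo44, a substrate receptor of a ubiquitin ligase 3.92 Mb below, was at 130, 125 and 127 CPM in Plekhg5+/+ and at 133, 122 and 79.9 CPM in Plekhg5-/-, and at 114, 102 and 129 CPM in Plekhg5+/+ SOD1-G93A and 100, 103 and 99.2 CPM in Plekhg5-/- SOD1-G93A. Gm32603, a long noncoding RNA 3.86 Mb below whose counts were whole in all libraries, was at 0.0875, 0.063 and 0.092 CPM in Plekhg5+/+, 0.146, 0 and 0.664 CPM in Plekhg5-/-, 0.124, 0.691 and 0.0901 CPM in Plekhg5+/+ SOD1-G93A and 0.491, 1.09 and 0.49 CPM in Plekhg5-/- SOD1-G93A. On the other side of Plekhg5, 3.33 Mb above, the long noncoding RNA 5830444B04Rik was at 0.437, 0.504 and 0.445 CPM in Plekhg5+/+, 0.556, 0.362 and 0.127 CPM in Plekhg5-/-, 0.558, 0.23 and 0.511 CPM in Plekhg5+/+ SOD1-G93A and 0.123, 0.182 and 0.103 CPM in Plekhg5-/- SOD1-G93A. Plekhg5-/- replicate 3 and Plekhg5+/+ SOD1-G93A replicate 2 both stood apart from their genotype, by the 1.5-fold rule above, in 6 members, and in the same direction in 6 of these 6. Besides Zfp990, Gm42346, Zfp979, Gm32603 and 5830444B04Rik, the sixth was Zfp993. In the 6 called members within 3.2 Mb of Plekhg5, neither library stood apart.

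**Figure D5:**
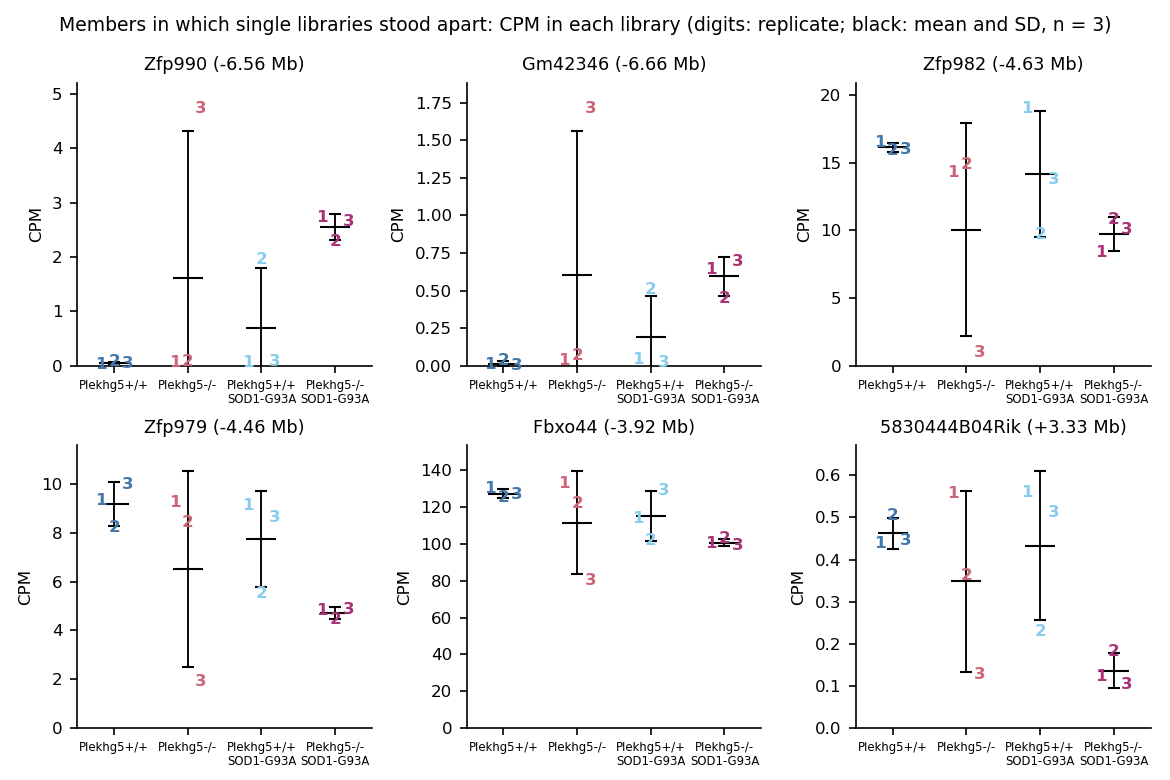
CPM in each library for 6 members in which Plekhg5-/- replicate 3 stood at least 1.5-fold from both others of its genotype. Digits are replicate numbers and black bars the mean and SD of 3 libraries, cut at 0 CPM. For Zfp990, replicate 3 of Plekhg5-/- is at 4.73 CPM and the other Plekhg5-/- libraries at 0.0535 and 0.0761 CPM, while all 3 Plekhg5-/- SOD1-G93A libraries lie between 2.28 and 2.72 CPM.

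Values in the cluster depended on these libraries. Both libraries were singled out by their values at such members. Calls of these members made without them are thus descriptions and no test. With all 12 libraries, Zfp990 had log2 fold changes of 4.89 (SE 2.05, edgeR adjusted p = 0.930) and 1.88 (SE 1.32, edgeR adjusted p = 0.664). With Plekhg5-/- replicate 3 and Plekhg5+/+ SOD1-G93A replicate 2 both left out, they were 0.52 (edgeR adjusted p = 0.912) and 5.0 (edgeR adjusted p = 0.000134). In the same order, Gm42346 had 5.41 and 1.73 with all libraries and 1.80 and 4.14 without these, Zfp982 had -0.68 and -0.54 and then -0.14 and -0.75, and Fbxo44 had -0.19 and -0.19 and then 0.01 and -0.27, with no call in either fit. Gm32603 had 1.66 and 1.21 and then -0.12 and 2.64, Zfp993 had 0.96 and 0.45 and then 0.10 and 1.0, and 5830444B04Rik had -0.37 and -1.67 and then 0.02 and -1.96, again uncalled. For Zfp979 they changed from -0.49 and -0.72 to -0.05 and -0.91, and the second was then called (edgeR adjusted p = 0.0293). In the same fit Gm30120 had log2 fold changes of 2.49 and 2.7, Slc2a5 of -1.54 and -1.45 and Eno1 of -0.44 and -0.59, and in the average these 3 and Tnfrsf25 were still called, as was Zfp990, with 2.76 (edgeR adjusted p = 0.0399), while Faap20 and Ttc34 were not (edgeR adjusted p = 0.199 and 0.208). The calls of Slc2a5 and Tnfrsf25 without the transgene (edgeR adjusted p = 0.0797 and 0.0806) and those of Eno1 and Faap20 with it (edgeR adjusted p = 0.0692 and 0.131) were lost.

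By role, 142 of the members were placed in 13 lists, and the median log2 fold change over all members was -0.011 in the average. The TNF receptor list held 5 members, of which Tnfrsf25 fell and 4 were not called. Their log2 fold changes in the average ran from -3.36 to -0.32, with a median of -0.66. Tnfrsf14, a receptor for LIGHT, was at 8.36, 3.78 and 4.19 CPM in Plekhg5+/+ SOD1-G93A and 2.66, 2.6 and 1.96 CPM in Plekhg5-/- SOD1-G93A. These groups did not overlap, and its log2 fold change was -1.17 (edgeR adjusted p = 0.387), against -0.14 without the transgene. The highest of these libraries, replicate 1, also had the highest Tnfrsf1b, a receptor of microglia, at 17.7 CPM against 8.99 and 10.7 CPM in the other two. The list of sugar transport and glucose metabolism held 4 members, of which edgeR called Slc2a5 and Eno1 lower. Summed with its copies, Eno1 was not called, with log2 fold changes of -0.09 without the transgene and -0.14 with it. The enzymes Pgd and H6pd had log2 fold changes in the average of 0.04 and -0.05. In the list of DNA repair and cell death, 2 of 5 fell, Tnfrsf25 and Faap20, and the DNA fragmentation factor subunits Dffa and Dffb had 0.15 and 0.16.

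Further lists held the genes best known from neurons and disease, and edgeR called none of them in the average. The counts at an unadjusted p under 0.05 given here stand against 3.84% of all genes and 16.4% of the members. Among 9 genes of mitochondria, NAD and peroxisomes, 0 were called, 1 had an unadjusted p under 0.05 and the median log2 fold change was 0.03. Mfn2, a fusion protein of mitochondria mutated in an inherited neuropathy, lies 4.2 Mb below Plekhg5 and had log2 fold changes of 0.00 (SE 0.0618) and 0.05 (SE 0.0618). Among 7 genes listed under RNA processing 0 were called, and the 1 with such a p was Srm, which encodes the polyamine enzyme spermidine synthase. Tardbp, which encodes TDP-43, the protein that aggregates in most ALS, lies 3.46 Mb below and had log2 fold changes of -0.08 (SE 0.0639) and 0.11 (SE 0.0639). Its level was 191, 199 and 186 CPM in Plekhg5+/+ and 171, 190 and 182 CPM in Plekhg5-/-. Among 12 chromatin and transcription factor genes 0 had such a p, and among 11 neuronal and synaptic genes 1 did. DESeq2 also called 0 members in these 4 lists in the average. EdgeR called 0 of 7 genes listed under mTOR, PI3K and small GTPase signalling and 0 of 9 listed under ubiquitin ligases and F-box proteins. It called 0 of 7 immune genes and 0 of 4 genes listed under vessels, Pdpn, Plod1, Clcn6 and Angptl7. The natriuretic peptide genes Nppa and Nppb, placed in that last list beforehand, were not members. In these lists 2, 2, 4 and 3 genes had an unadjusted p under 0.05, and DESeq2 called Angptl7 of the last. Of 54 predicted or unnamed gene models, Gm30120 rose and the others were not called.

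The 5 members with the highest levels were not called. Kif1b, the motor of mitochondria and synaptic vesicle precursors, ranged from 1260 to 1720 CPM over all libraries, with log2 fold changes of -0.08 and 0.14. Clstn1 had -0.05 and 0.13, Kcnab2 -0.07 and 0.10, Camta1 -0.08 and 0.14 and the G protein subunit Gnb1 0.04 and 0.12. The SE of these values was at most 0.0986.

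The effect of losing Plekhg5 was not shown to differ between the backgrounds for any member. The interaction test called 0 members and 0 of all genes by edgeR (smallest adjusted p of a member 0.363), and DESeq2 called 0 members and 92 of all genes without a prior. An unadjusted p under 0.05 was found for 14 of the 213 members, a smaller share than the 9.18% of all genes. The smallest was that of Hes3, a Notch-pathway repressor 0.213 Mb above Plekhg5, with log2 fold changes of 0.95 and -0.35 and an interaction p of 0.0021. The SOD1-G93A transgene, averaged over both Plekhg5 genotypes, was tested in the same fit for comparison. It changed 2 of the 213 members, a smaller share than the 1.23% of all genes, with 1.12% of all genes higher and 0.103% lower. Dhrs3, a retinal reductase, rose by 0.43 on the log2 scale (edgeR adjusted p = 0.031) and Klhl17, an actin-binding adaptor of a ubiquitin ligase, fell by 0.21 (edgeR adjusted p = 0.0451). Their log2 fold changes with the loss of Plekhg5 in the average were 0.05 and 0.01 and were not called. With 1 library left out at a time, 0 to 5 members were called for the transgene, and 0 without any of Plekhg5+/+ replicates 1, 2 and 3, Plekhg5-/- replicates 2 and 3 and Plekhg5-/- SOD1-G93A replicates 1 and 2. Of the 6 members called for the loss of Plekhg5, none was called for the transgene by edgeR, and their log2 fold changes with it ran from -0.44 to 0.22.

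Markers of the cell types of the cord and of tissue around it were measured in 11 lists, and edgeR called none of them for the loss of Plekhg5. The summed level of 3 Schwann cell markers, a sign of nerve roots in the sample, ranged from 56.5 to 231 CPM in Plekhg5+/+, from 45.9 to 91.7 CPM in Plekhg5-/-, from 44.8 to 129 CPM in Plekhg5+/+ SOD1-G93A and from 220 to 339 CPM in Plekhg5-/- SOD1-G93A. The markers had a median log2 fold change of -1.32 without the transgene and of 1.37 with it. Other lists had 1 sign in both comparisons. The 3 blood markers had medians of -0.62 and -0.89, with sums of 416 to 727 CPM against 340 to 411 CPM without the transgene, which did not overlap, and of 562 to 1220 CPM against 342 to 575 CPM with it. The 3 skeletal muscle markers had medians of -1.45 and -1.43, with sums of 1.27 to 100 CPM against 3.89 to 28.7 CPM and of 2.15 to 52.2 CPM against 1.76 to 21.7 CPM. The part of these lists in the levels of the members was not tested.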

How the data were processed

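Poly-A RNA of mouse spinal cord was sequenced by the authors, trimmed with cutadapt 2.4, aligned to GRCm38.p6 with STAR 2.7.2b and counted against the RefSeq annotation with featureCounts 1.6.4 of the Subread package, per the study's methods and processing notes. The deposited table holds estimated counts, in which the authors divided a read with several matches among its genes, so that many values are not whole. No normalization was applied to it.

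Counts were rounded to whole numbers, genes with at least 120 counts over all 12 libraries were kept, and one model with 4 genotypes was fitted with edgeR 4.0.16 (TMM scaling, robust quasi-likelihood test, Benjamini-Hochberg adjustment over all 19499 genes) in R 4.3.3. Log2 fold changes and their SE come from this fit, and CPM from TMM-scaled library sizes. A gene was called at an adjusted p under 0.05. DESeq2 1.42.0 was run as an alternative, besides other scalings and filters, a replicate block and leaving out each library. Copies were found with blastn 2.17.0 on GENCODE transcripts. The procedure was tested on simulated data. Replicates are separate mice, and 3 per genotype limit the precision. Named genes were every called member, the 10 members with the smallest unadjusted p in each of the 3 contrasts of Plekhg5 loss, the 3 neighbours of Plekhg5 on each side, the 5 members with the highest CPM, the 2 with the smallest p in each list, and Tardbp and Mfn2. Outside this rule, Tnfrsf1b, Pgd, H6pd, Dffa and Dffb are named as further members of their lists. Other members named for their values are marked as chosen after these were seen. Some results that this rule names are not reported here. The members and lists were chosen with earlier results of these data known.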

Additional observations from a re-analysis of the deposited data

How the results depend on the processing

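No log2 fold change of a named gene reversed its direction past the threshold under any alternative run. Of 2802 values of named genes, 2725 kept their direction and their side of the threshold, 54 lost a call and 23 gained one. Most of these values were uncalled in the main fit and could not lose a call. The most frequent losses were those of Ttc34 in the average, in 15 of 24 alternatives, and of Eno1 and Faap20 with the transgene, in 11 of 24 and 9 of 25. Plekhg5 and Gm30120 lost no call, nor did Slc2a5 and Tnfrsf25 in the average. The number of members called was 3 without the transgene, 4 with it, 6 in the average and 2 for the transgene. Without the transgene it was 5 with DESeq2, with or without a prior, and 1 when only the 2 genotypes were fitted, when only genes with whole counts were used, and when Plekhg5-/- replicate 3 and Plekhg5+/+ SOD1-G93A replicate 2 were both left out. With the transgene it was 7 with DESeq2 and a prior, and 2 with whole counts only or with Y-linked transcripts as a covariate. In the average it was 2 with whole counts only. For the transgene it was 10 with DESeq2, 7 at an adjusted p under 0.1, 4 with the Y-linked covariate and with both libraries left out, 1 with no filter on low counts and 0 with whole counts only. With each library left out in turn, it ranged from 2 to 5 without the transgene, from 1 to 4 with it, from 4 to 6 in the average, from 0 to 0 in the interaction and from 0 to 5 for the transgene. Over all genes, DESeq2 without a prior called 34, 71, 18 and 823 genes, against 6, 7, 11 and 239 with edgeR. Replicate numbers were not shown to pair the samples. Correlations of same-numbered samples ran from -0.08 to 0.34 and those of the others from -0.29 to 0.3. The highest in each comparison was that of the samples numbered 1, at 0.34 and 0.31. The replicate block gave 3, 4 and 5 called members for the loss of Plekhg5, 0 in the interaction and 3 for the transgene. With whole counts only, 56 of the members were tested. Gm30120, Tnfrsf25 and Eno1 hold fractions of reads and were removed, so they could not be called in that setting. The cause of the remaining changes was not tested.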
